A study of Mus musculus with 6 samples.

Results

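The immunity-related GTPases are a family of interferon-inducible GTP-binding proteins, and the 7 mouse genes described here are *Irgm1*, *Irgm2*, *Igtp*, *Iigp1*, *Ifi47*, *Tgtp1* and *Tgtp2*. They were picked by gene symbol, as a family, when earlier results of these data were already known, and all 7 were found among the 54331 genes listed. RNA was sequenced at 10 days postinfection (dpi) from 6 wells, of which 3 formed the OSKA − 4OHT group and 3 the OSKA + 4OHT group. In both groups, mouse embryonic fibroblasts (MEFs) from pooled male E13.5 embryos, on a mixed background of C57BL/6, DBA/2 and ICR and carrying an *Oct4-EGFP* transgene, had received *Oct4*, *Sox2* and *Klf4* together with AKT-MER by retroviral transduction. AKT-MER is a myristoylated AKT joined to a modified estrogen receptor, which becomes active when 4-hydroxytamoxifen (4OHT) binds to it. From 3 dpi, the OSKA + 4OHT wells were given 1 µM 4OHT and the OSKA − 4OHT wells its vehicle, ethanol. The infected cells were replated into the wells at that time, so the p-values measure the spread between wells, which may be technical. Wells that received 4OHT without AKT-MER were not analysed here, so an effect of 4OHT itself and one of activated AKT cannot be told apart.

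In mouse cells, these GTPases are made chiefly in response to interferon-gamma and defend the cell against parasites and bacteria that live inside vacuoles, such as *Toxoplasma gondii* and *Chlamydia*. The family falls into a class named GMS after a motif in the GTP-binding site, to which *Irgm1*, *Irgm2* and *Igtp* (also called *Irgm3*) belong, and a class named GKS, to which *Tgtp1* and *Tgtp2* (both *Irgb6*), *Ifi47* (*Irgd*) and *Iigp1* (*Irga6*) belong. GKS proteins collect on the vacuole membrane and help to break it open, whereas GMS proteins stay on the membranes of the cell's own organelles and keep GKS proteins inactive there. Interferon-gamma acts on its target genes through a promoter element called GAS, and IRF factors act at a second element, called ISRE, to which interferons of both types signal.

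Of the 7 genes, 6 lie on chromosome 11 (GENCODE M21, GRCm38). *Irgm1* (48861968 to 48871683), *Tgtp1* (48985327 to 48994172) and *Tgtp2* (49057194 to 49064206) on the minus strand and *Ifi47* (49076587 to 49096974) on the plus strand lie within 235 kb. *Igtp* (58199556 to 58207591) and *Irgm2* (58199618 to 58222782), both on the plus strand, lie 9.10 Mb further along, and 162 bases of exon are annotated to both of them. All 7 genes are annotated as protein coding.

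The promoters are shown because they were searched for the elements through which interferon is known to act. RefSeq promoters (GRCm38.p6, 250 bases before to 50 after the annotated start) were available for 6 of the 7 genes, all but *Iigp1*. For *Irgm1*, *Irgm2* and *Tgtp1*, the RefSeq start lies inside the GENCODE span given above, so the starts of these annotations differ. The GAS core was searched as TTCNNNGAA, which reads the same on both strands, and the ISRE core as GAAA, any 2 bases and GAAA, on both strands. Each line gives 100 bases that end at position −15 from the start, 5′ to 3′ on the strand of the gene, with the matches in capitals. The lines cover chr11:48871435-48871534 for *Irgm1*, chr11:58214863-58214962 for *Irgm2*, chr11:58199442-58199541 for *Igtp*, chr11:48992261-48992360 for *Tgtp1*, chr11:49064227-49064326 for *Tgtp2* and chr11:49076473-49076572 for *Ifi47*.
Irgm1: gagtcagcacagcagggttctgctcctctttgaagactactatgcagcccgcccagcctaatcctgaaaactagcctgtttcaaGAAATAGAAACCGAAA
Irgm2: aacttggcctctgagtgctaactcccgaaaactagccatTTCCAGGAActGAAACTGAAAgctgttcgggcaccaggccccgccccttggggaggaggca
Igtp: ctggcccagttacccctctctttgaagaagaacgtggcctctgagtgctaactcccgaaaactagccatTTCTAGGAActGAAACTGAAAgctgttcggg
Tgtp1: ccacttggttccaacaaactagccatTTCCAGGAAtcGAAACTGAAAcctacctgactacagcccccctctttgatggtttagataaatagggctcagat
Tgtp2: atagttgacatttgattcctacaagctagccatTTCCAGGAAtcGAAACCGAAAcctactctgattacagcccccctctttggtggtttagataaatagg
Ifi47: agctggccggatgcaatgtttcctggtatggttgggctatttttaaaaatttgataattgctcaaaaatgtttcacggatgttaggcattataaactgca

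In *Irgm2*, *Igtp*, *Tgtp1* and *Tgtp2*, a GAS core was followed by an ISRE core with 2 bases between them. The *Irgm1* promoter held a pair of ISRE cores that overlap each other and no GAS core, and neither core was found in the 300 bases of *Ifi47*. In all, 4 of the 6 promoters held a GAS core, 5 an ISRE core and 4 both. The letters around the cores were nearly the same in *Irgm2* and *Igtp*, and likewise in *Tgtp1* and *Tgtp2*. The 4 promoters with both cores are therefore not read as independent occurrences. Of 32851 mouse promoters of the same length, 8.30% held a GAS core, 3.44% an ISRE core and 0.45% both. A match describes the letters in this window and was not examined for binding of any factor.

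**Figure D1:**
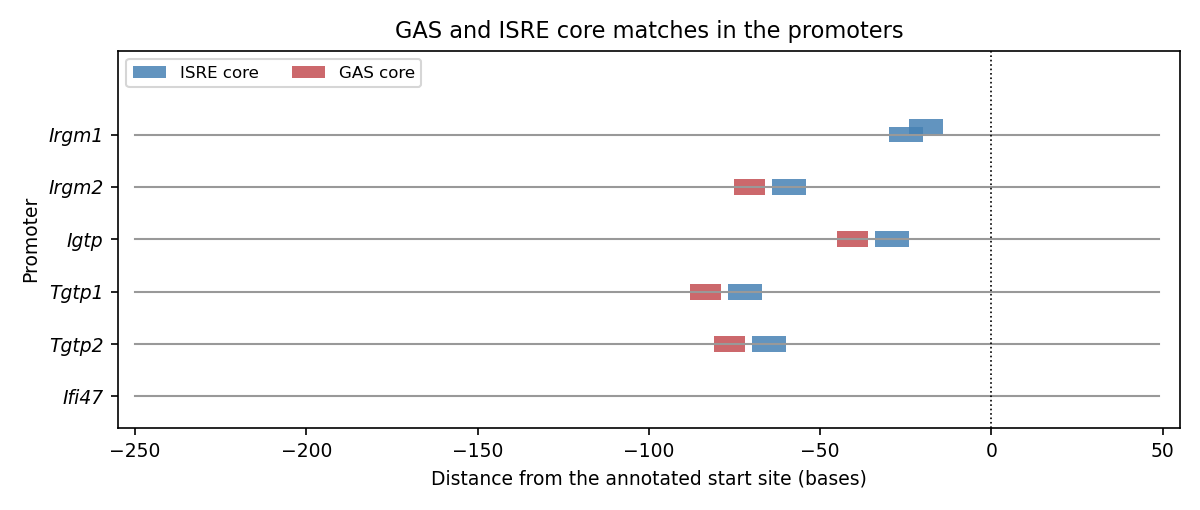
Positions of GAS core (red) and ISRE core (blue) matches in 6 promoters, in bases from the annotated start site (dotted line), with a grey line for the 300 bases searched. A GAS core stands 2 bases before an ISRE core in *Irgm2*, *Igtp*, *Tgtp1* and *Tgtp2*, *Irgm1* has 2 overlapping ISRE cores (drawn one above the other) and *Ifi47* has no match.

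Values are given in TPM, a transcript level per length that adds up to 1000000 in each well, so that levels can also be compared between genes. The sequencing depth is not kept in TPM and is unknown here. The number of genes with a value above 0 was 15814 to 17692 per OSKA − 4OHT well and 17578 to 18230 per OSKA + 4OHT well. A 0 can be a failed estimate (of 5708 genes whose median passed 20 TPM, 97 had a 0 somewhere), so such genes are only said to be listed at 0. In bulk samples, a change in the number of cells that express a gene and a change in its RNA per cell cannot be told apart.

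All 7 genes were higher in every OSKA + 4OHT well than in any OSKA − 4OHT well. Groups that stood apart in this direction were found for 18.1% of the 15382 genes tested, which are those whose mean over the wells reached 1 TPM. The summed level of the 7 genes was 74.2, 64.8 and 90.4 TPM in OSKA − 4OHT replicates 1, 2 and 3 and 320.3, 401 and 675 TPM in OSKA + 4OHT replicates 1, 2 and 3. By limma-trend on log2(TPM + 0.5), where a call needed a Benjamini-Hochberg adjusted p below 0.05 together with a change of more than 1 on the log2 scale, 5 of the 7 rose (*Irgm1*, *Irgm2*, *Igtp*, *Iigp1* and *Tgtp1*), against 2.87% of all tested genes. *Ifi47* and *Tgtp2* did not pass the test. *Tgtp2* was listed at 0 in the OSKA − 4OHT wells and passed the 1 TPM filter only through the OSKA + 4OHT wells. Its place in these counts is therefore not read as a test of its change. The median log2 fold change was 2.74 over the 7 genes, with the fitted value of *Tgtp2* included, and 2.40 over the 6 that were above 0 in both groups, against 0.14 over all tested genes. Relative to that overall median, the log2 fold changes of these 6 genes ran from 1.02 (*Ifi47*) to 3.37 (*Tgtp1*).

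**Figure D2:**
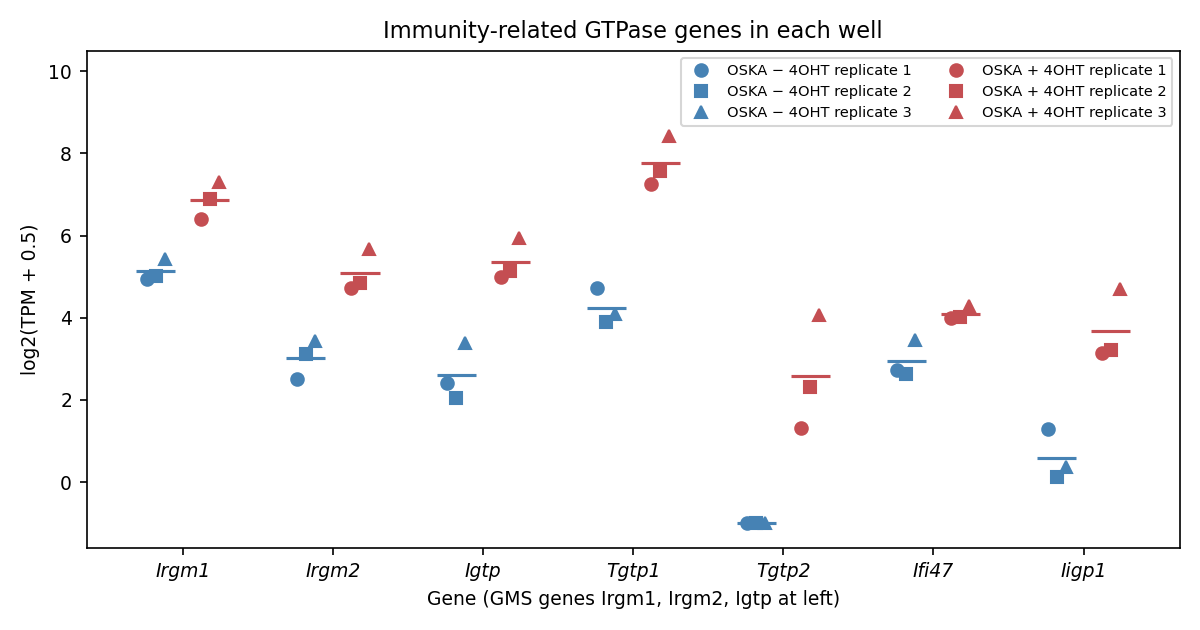
Level of each gene in each of the 6 wells, as log2(TPM + 0.5). Blue and red symbols are the OSKA − 4OHT and OSKA + 4OHT wells, the shape gives the replicate number and the short lines are group means. In all 7 genes the red symbols lie above the blue ones, and OSKA + 4OHT replicate 3 (red triangle) is the highest well.

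Among the GMS genes, *Irgm1*, which is also known for its part in autophagy and in limiting mycobacteria, had the highest level. Its OSKA − 4OHT replicates 1, 2 and 3 stood at 30.1, 32.1 and 42.4 TPM and its OSKA + 4OHT replicates at 84.3, 117 and 159 TPM. Every OSKA + 4OHT well was at least 1.99 times as high as the highest OSKA − 4OHT well. The mean rose 3.44-fold, from 34.9 ± 6.59 to 120.1 ± 37.2 TPM (SD, n = 3 wells each), with a log2 fold change of 1.74 ± 0.27 (SE) and an adjusted p of 0.0197 (limma-trend). The call was lost without OSKA − 4OHT replicate 1 (adjusted p = 0.0632, limma-trend), OSKA − 4OHT replicate 2 (0.0759) or OSKA + 4OHT replicate 2 (0.0857).

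*Irgm2*, a GMS protein of the Golgi apparatus, stood at 5.18, 8.24 and 10.3 TPM without 4OHT and at 26.0, 28.1 and 50.7 TPM with it, in order of replicate. The groups were separated by a factor of 2.54 between their nearest wells. Its mean rose 4.43-fold, from 7.89 ± 2.56 to 34.9 ± 13.7 TPM, with a log2 fold change of 2.06 ± 0.36 and an adjusted p of 0.0287 (limma-trend). The call was kept without OSKA − 4OHT replicate 3 (adjusted p = 0.0496, limma-trend) and lost without any other well, with values of 0.0667 without OSKA − 4OHT replicate 1, 0.0858 without OSKA − 4OHT replicate 2, and 0.0796, 0.0882 and 0.0683 without OSKA + 4OHT replicates 1, 2 and 3.

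*Igtp*, a GMS protein of the endoplasmic reticulum, stood at 4.83, 3.67 and 9.92 TPM in the OSKA − 4OHT wells and at 31.4, 34.8 and 60.8 TPM in the OSKA + 4OHT wells, in order of replicate. Its highest OSKA − 4OHT well, replicate 3, was still 3.16 times below the lowest OSKA + 4OHT well. The mean rose 6.89-fold, from 6.14 ± 3.32 to 42.3 ± 16.1 TPM, with a log2 fold change of 2.74 ± 0.42 and an adjusted p of 0.0196 (limma-trend). As for *Irgm2*, the call was kept without OSKA − 4OHT replicate 3 (adjusted p = 0.0227, limma-trend) and lost without OSKA − 4OHT replicates 1 (0.0636) or 2 (0.0631) or OSKA + 4OHT replicates 1 (0.0684), 2 (0.0744) or 3 (0.0635). *Igtp* and *Irgm2* are neighbours whose transcripts share sequence. Of the windows of 50 bases, the read length, in *Igtp* transcripts, 11.8% also occurred in *Irgm2*, and 88.2% occurred in no other gene.

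Among the GKS genes, *Tgtp1* was the most abundant. *Tgtp1* and *Tgtp2* encode near-identical effectors that mark vacuole membranes for attack. *Tgtp1* stood at 25.9, 14.5 and 16.6 TPM in the OSKA − 4OHT wells and at 153, 191 and 344 TPM in the OSKA + 4OHT wells. The lowest OSKA + 4OHT well was 5.90 times as high as the highest OSKA − 4OHT well. Its mean rose 12.1-fold, from 19.0 ± 6.09 to 229 ± 101 TPM, with a log2 fold change of 3.52 ± 0.36 and an adjusted p of 0.00603 (limma-trend). *Tgtp1* was the one gene of the 7 whose call held without each of the 6 wells in turn, with adjusted p-values from 0.0178 to 0.0342 (limma-trend). By log2 fold change it ranked 82nd of the 15382 tested genes.

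*Tgtp2* was listed at 0 in the 3 OSKA − 4OHT wells and at 2.01, 4.45 and 16.4 TPM in the OSKA + 4OHT wells. Its adjusted p of 0.0538 (limma-trend) did not pass the threshold. *Tgtp2* passed the filter only through the OSKA + 4OHT wells, so this value is not read as a test of its change. Its fitted log2 fold change is not read as a size, since against a group listed at 0 it is set by the pseudocount. How reads were divided between the pair is uncertain, because 79.4% of the 50-base windows of *Tgtp1* and 85.8% of those of *Tgtp2* occurred in both genes, and 18.8% and 13.4% of the windows occurred in no other gene. Their summed level counts the reads given to either gene, but it can still shift with that division where transcripts differ in length, which was not tested. The sum was 25.9, 14.5 and 16.6 TPM in the OSKA − 4OHT wells and 155, 196 and 360.4 TPM in the OSKA + 4OHT wells, with a log2 fold change of 3.56 ± 0.37 and an adjusted p of 0.00628 (limma-trend). *Gm12185*, a further family gene, shared 5.6% of the *Tgtp1* windows and was listed at 5.68 TPM in OSKA + 4OHT replicate 1 and at or below 0.365 TPM in every other well.

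*Iigp1*, the best studied GKS protein and among the first to reach the vacuole, is the gene that lies apart from the others, on chromosome 18 (60376027 to 60392634, plus strand). It was low in the OSKA − 4OHT wells, at 1.96, 0.582 and 0.784 TPM. In the OSKA + 4OHT wells it stood at 8.28, 8.80 and 25.5 TPM, at least 4.23 times above the highest OSKA − 4OHT well. The mean rose 12.8-fold, from 1.11 ± 0.743 to 14.2 ± 9.77 TPM, with a log2 fold change of 3.09 ± 0.55 and an adjusted p of 0.0311 (limma-trend). This call was lost without any 1 of the 6 wells, with adjusted p-values (limma-trend) of 0.0506, 0.0951 and 0.0849 without OSKA − 4OHT replicates 1, 2 and 3 and 0.0843, 0.0898 and 0.0723 without OSKA + 4OHT replicates 1, 2 and 3.

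*Ifi47* changed least. It stood at 6.16, 5.73 and 10.4 TPM in the OSKA − 4OHT wells and at 15.5, 15.8 and 18.9 TPM in the OSKA + 4OHT wells. The wells did not overlap, but the nearest of them were separated by a factor of only 1.49. The means were 7.44 ± 2.59 and 16.8 ± 1.89 TPM, with a log2 fold change of 1.16 ± 0.27 and an adjusted p of 0.0644, which missed the threshold (limma-trend). Without OSKA − 4OHT replicate 3, the highest of its group, the adjusted p was 0.0426 (limma-trend) and *Ifi47* was called.

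**Figure D3:**
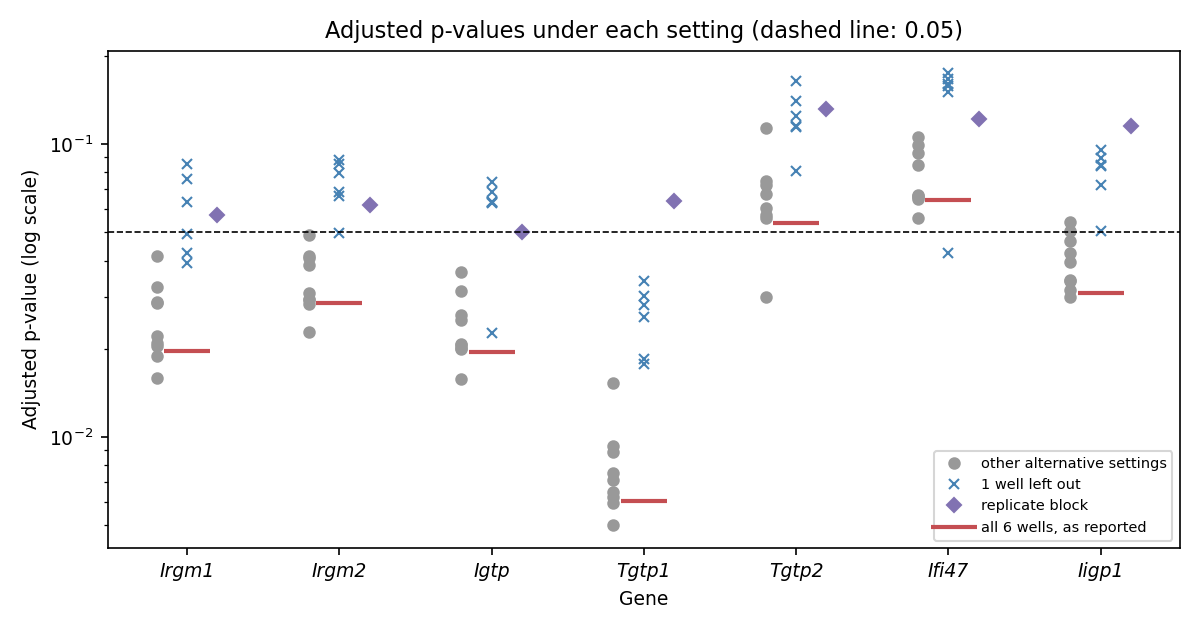
Adjusted p-values (log scale) of the 7 genes with all 6 wells (red line), with 1 well left out (blue crosses), with the replicate number as a block (purple diamond) and under the other settings (grey), with the threshold of 0.05 dashed. *Tgtp1* stays below the threshold without each well in turn, and all 6 crosses of *Iigp1* lie above it.

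**Figure D4:**
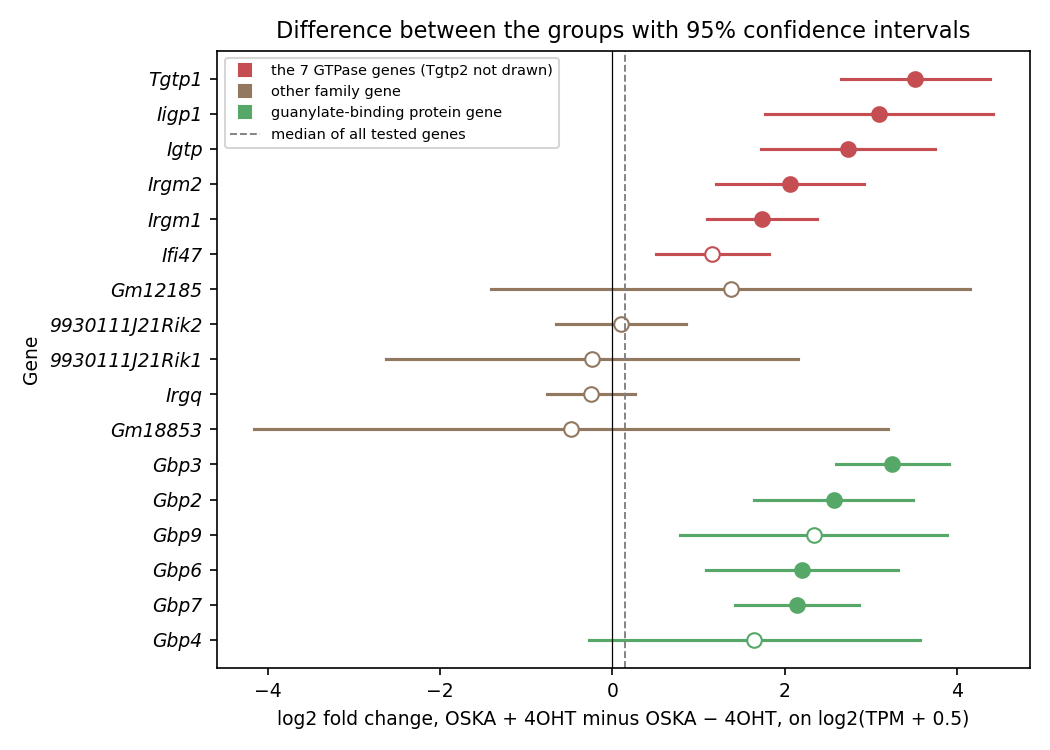
Log2 fold change (OSKA + 4OHT minus OSKA − 4OHT, on log2(TPM + 0.5)) with its 95% confidence interval for 6 of the 7 genes, 5 other family genes and 6 guanylate-binding protein genes, with filled circles for called genes and a dashed line at the median of all tested genes, 0.14. *Tgtp2*, *Gm12250* and *Gm4951* are not drawn because they were listed at 0 in all OSKA − 4OHT wells. The 6 GTPase genes lie between 1.16 and 3.52.

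The order of the levels differed between the groups. In the OSKA − 4OHT wells, *Irgm1* was the highest, *Tgtp1* followed without overlap, *Irgm2*, *Ifi47* and *Igtp* overlapped each other, and *Iigp1* and then *Tgtp2* came last. In the OSKA + 4OHT wells, *Tgtp1* came first, and its range overlapped that of *Irgm1*, although it was higher than *Irgm1* within each of the 3 wells. *Igtp* and *Irgm2* followed with overlapping ranges, and *Ifi47*, *Iigp1* and *Tgtp2* overlapped at the low end. The ratio of *Tgtp1* to *Irgm1* was 0.859, 0.450 and 0.391 in OSKA − 4OHT replicates 1, 2 and 3 and 1.81, 1.63 and 2.17 in OSKA + 4OHT replicates 1, 2 and 3 (exact permutation test, two-sided p = 0.1, the smallest that 3 against 3 wells can give). The ratio of *Igtp* to *Irgm2* was 0.933, 0.445 and 0.967 in the OSKA − 4OHT wells and 1.20, 1.24 and 1.20 in the OSKA + 4OHT wells, with the same exact permutation p of 0.1. The ratio of *Ifi47* to *Irgm1* overlapped between the groups.

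As a share of the summed level, *Irgm1* made up 45.7 ± 4.59% in the OSKA − 4OHT wells and 26.4 ± 2.91% in the OSKA + 4OHT wells (SD, n = 3 each). *Tgtp1* made up 25.2 ± 8.66% and 48.8 ± 1.88%. *Ifi47* made up 9.56 ± 1.73% and 3.87 ± 1.03%. For each of these 3 genes the shares of the groups did not overlap. A share depends on the other genes in the sum, so a lower share of *Irgm1* and *Ifi47* stood beside a higher level of both.

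**Figure D5:**
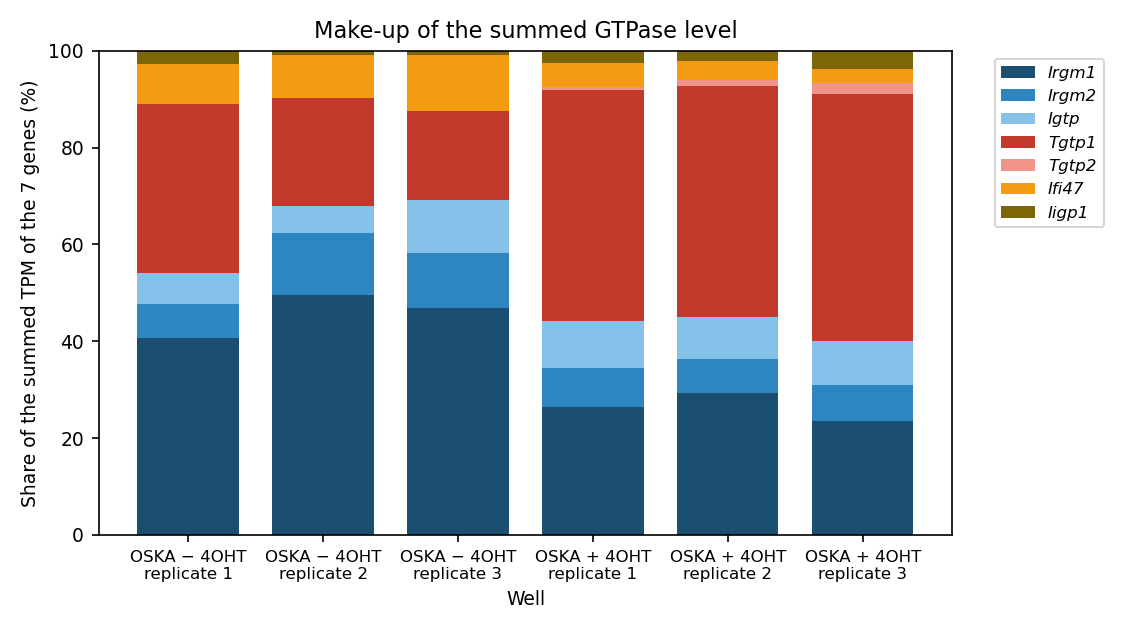
Share of each gene, in percent, in the summed TPM of the 7 genes, with 1 bar per well. *Irgm1* (dark blue) is the largest share in the 3 OSKA − 4OHT wells and *Tgtp1* (red) in the 3 OSKA + 4OHT wells.

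The OSKA + 4OHT wells differed among themselves. All 7 genes were highest in OSKA + 4OHT replicate 3 and lowest in OSKA + 4OHT replicate 1, whereas 23.9% of all tested genes were highest in replicate 3. The ratio of replicate 3 to the mean of the other two OSKA + 4OHT wells was 1.21 for *Ifi47*, 1.57 for *Irgm1*, 1.84 for *Igtp*, 1.87 for *Irgm2*, 2.00 for *Tgtp1*, 2.98 for *Iigp1* and 5.08 for *Tgtp2*. Over all tested genes the median of this ratio was below 1, at −0.18 on the log2 scale. Without this well, *Tgtp1* (adjusted p = 0.0184, limma-trend) and *Irgm1* (0.0494) were the 2 genes still called.

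Over the 6 wells, the log2 levels of any pair of the 7 genes were correlated with Pearson's r between 0.865 (*Iigp1* and *Ifi47*) and 0.988, a description that includes the difference between the groups. The 5 other tested genes whose levels were most like the mean of the 7, by Pearson's r over the 6 wells, were *Gm5844* (0.994), an annotated processed pseudogene, *Rbm8a* (0.994), which encodes a core protein of the exon junction complex, *Ifit3* (0.994), an interferon-induced antiviral gene, *Pmf1* (0.993), which encodes a kinetochore protein, and *Hoxa9* (0.993), a homeobox gene. An r above 0.95 was found for 188 genes. *Gm5844* was listed at 0 in the OSKA − 4OHT wells and at 2.36, 3.11 and 6.32 TPM in the OSKA + 4OHT wells. It passed the filter only through the OSKA + 4OHT wells, and its r depends on the pseudocount. The levels of *Ifit3* were 4.95, 3.74 and 5.28 TPM in the OSKA − 4OHT wells and 23.3, 41.6 and 60.3 TPM in the OSKA + 4OHT wells. *Rbm8a* ran up to 77.1 TPM and from 108 to 135 TPM (log2 fold change 0.66 ± 0.14), so a like pattern over the wells did not mean a like size of change.

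Of 13 other family genes looked for, 12 were listed, 7 were tested and 1 was called higher, against 2.87% of all tested genes. The called gene passed the filter only through the OSKA + 4OHT wells, so its call is not read as a test of its change. That gene, *Gm12250* (*Irgb10*, known for attacking bacterial membranes, but annotated in GENCODE M21 as a processed pseudogene), was listed at 0 in the OSKA − 4OHT wells and at 2.77, 2.04 and 5.78 TPM in the OSKA + 4OHT wells (adjusted p = 0.0497, limma-trend). Like that of *Tgtp2*, its fitted change against a group listed at 0 is set by the pseudocount and is not read as a size. *Gm4951*, near *Iigp1* on chromosome 18, was listed at 0 in the OSKA − 4OHT wells and at a mean of 4.56 TPM in the OSKA + 4OHT wells, the highest at 8.29 TPM (adjusted p = 0.0846, limma-trend). *Gm4951* too passed the filter only through the OSKA + 4OHT wells. In the same stretch of chromosome 18, *F830016B08Rik* was listed at 0 and then at 0.659, 1.54 and 2.38 TPM, and *Gm4841* at 0 and then at 0, 0.266 and 2.20 TPM. Both were below the filter and were not tested. All 4 of these genes were highest in OSKA + 4OHT replicate 3.

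The remaining family genes did not pass the test or the filter. *Irgq*, a distant relative, stood at 7.86, 10.1 and 9.08 TPM and at 7.42, 8.39 and 6.69 TPM (log2 fold change −0.25 ± 0.21). *9930111J21Rik2* stood at 7.06, 7.18 and 8.53 TPM and at 5.81, 7.41 and 12.5 TPM (log2 fold change 0.10 ± 0.31). *9930111J21Rik1* and *Gm18853* overlapped between the groups, with means of 5.32 and 3.11 TPM and of 6.33 and 3.92 TPM. *Gm5431* had means of 0.698 and 0.555 TPM, *Irgc1* was listed above 0 in 1 well, at 0.492 TPM, and *Gm12187* was listed at 0 in all 6 wells. The median log2 fold change of the 7 tested genes was 0.10, and −0.23 over the 5 that were above 0 in the OSKA − 4OHT group.

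The pathway from interferon to these genes was described from its ligands down. Of 32 pathway genes, 22 were tested, 3 rose and 0 fell by limma-trend, against 2.87% and 1.37% of all tested genes. At an unadjusted p under 0.05, 8 were higher and 1 was lower, against 14.1% and 7.18% of all tested genes. Without overlap of the wells, 9 were higher and 3 lower, against 18.1% and 10.0% of all tested genes. *Nlrc5* (means of 0.309 and 5.33 TPM) is among the 8 and the 9, and *Socs1* (0.708 and 1.77 TPM) among the 9. Both passed the filter only through the OSKA + 4OHT wells, so their values are not read as tests of a change. All 7 ligands, among them *Ifng* and *Ifnb1*, were listed at 0 in all 6 wells. Of the receptor chains for interferon-gamma, *Ifngr1* had means of 31.8 ± 13.1 and 21.8 ± 1.43 TPM and *Ifngr2* 27.4 ± 13.3 and 25.4 ± 10.1 TPM. Of those for type I interferon, *Ifnar1* had means of 24.5 ± 1.58 and 22.9 ± 1.13 TPM and *Ifnar2* 32.4 ± 4.17 and 44.8 ± 4.85 TPM. None of the 4 passed the test, with adjusted p-values from 0.186 to 0.945 (limma-trend), although the wells of *Ifnar2* were higher and those of *Ifngr1* lower in the OSKA + 4OHT group without overlap. The receptor-bound kinases *Jak1* (118 ± 32.6 and 84.2 ± 10.2 TPM) and *Jak2* (30.5 ± 2.07 and 19.0 ± 1.07 TPM) did not pass either, with adjusted p-values of 0.292 and 0.0624 (limma-trend), and the wells of both were lower in the OSKA + 4OHT group without overlap.

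*Stat2*, a factor of type I interferon signalling, rose from 15.1 ± 6.06 to 58.8 ± 12.6 TPM (adjusted p = 0.0239, limma-trend) and was highest in OSKA + 4OHT replicate 2. *Usp18*, a brake on the type I receptor that was named after its values were seen, rose from 6.09 ± 3.03 to 49.5 ± 15.7 TPM (adjusted p = 0.0168, limma-trend).

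Of 5 IRF factors tested, 0 were called by limma-trend, and 3 were higher at an unadjusted p under 0.05, against 14.1% of all tested genes. *Irf1*, which is known to be needed for many interferon-gamma targets, stood at 15.1, 10.1 and 7.38 TPM and at 12.4, 12.7 and 36.5 TPM, so that the groups overlapped and OSKA + 4OHT replicate 3 stood above the other wells (adjusted p = 0.434, limma-trend). *Irf9*, which acts with STAT2 at the ISRE, had means of 27.9 ± 11.2 and 51.5 ± 1.76 TPM (adjusted p = 0.122, limma-trend). Named after their values were seen, *Irf7*, which amplifies type I interferon responses, had means of 14.6 ± 13.8 and 67.6 ± 30.2 TPM (adjusted p = 0.0888, limma-trend) and *Irf3* 14.7 ± 3.19 and 25.5 ± 9.11 TPM (adjusted p = 0.223, limma-trend), and the wells of both were higher in the OSKA + 4OHT group without overlap. *Irf8*, a factor of blood cells, had means of 0.598 and 0.316 TPM and was below the filter.

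The guanylate-binding proteins are a second family of interferon-inducible GTPases that act on the same vacuoles. Of 11 genes listed, 6 were tested and 4 rose (*Gbp2*, *Gbp3*, *Gbp6* and *Gbp7*), against 2.87% of all tested genes, with a median log2 fold change of 2.27 against 0.14 over all tested genes. *Gbp3* had the largest rise, from 8.34 ± 2.45 to 82.3 ± 15.9 TPM (log2 fold change 3.25 ± 0.27, adjusted p = 0.00376, limma-trend), and 5 of the 6 were highest in OSKA + 4OHT replicate 3. Autophagy conjugation proteins such as ATG5 are known to direct the GTPases to the right membranes. By limma-trend, 0 of 19 genes of that machinery had an adjusted p under 0.05, against 3.52% (higher) and 1.97% (lower) of all tested genes, 2 were lower at an unadjusted p under 0.05, against 7.18% of all tested genes, and the median log2 fold change of the 19 was −0.03. *Atg5* stood at 22.5 ± 0.949 and 24.2 ± 0.993 TPM.

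Markers of the cells in the wells were read beside these changes. Fibroblast markers were detected in every well, with a summed level of 5973 to 7789 TPM in the OSKA − 4OHT group and 3981 to 5236 TPM in the OSKA + 4OHT group, and 1 of the 8 was called higher (*Lum*) and 1 lower (*Pdgfrb*), against 2.87% and 1.37% of all tested genes. The sum was carried by *Vim*, *Col1a1* and *Col1a2*, whose wells were lower in the OSKA + 4OHT group without overlap, as were those of *Pdgfrb*, whereas those of *Lum*, *Thy1* and *Dcn* were higher without overlap. Of all tested genes, 10.0% were lower and 18.1% higher without overlap. The 6 markers of pluripotent cells added up to 2.87 to 3.69 TPM and to 35.9 to 52.3 TPM, and 4 of them were called higher, against 2.87% of all tested genes. Of the 4, *Dppa5a* (listed at 0 in the OSKA − 4OHT wells), *Nanog* and *Zfp42* passed the filter only through the OSKA + 4OHT wells. Their calls are not read as tests of a change. The other, *Tdgf1*, had means of 1.60 ± 0.447 and 9.99 ± 1.97 TPM (adjusted p = 0.0128, limma-trend). The 10 macrophage markers added up to 130 to 160 TPM and to 89.3 to 99.6 TPM, with 0 called (limma-trend; 0 higher and 1 lower at an unadjusted p under 0.05, against 14.1% and 7.18% of all tested genes). That 1 gene was *Lyz2*, which made up most of the sum and went from 95.2 ± 5.63 to 51.8 ± 7.77 TPM (adjusted p = 0.0299, limma-trend). The list did not move as one, since the wells of *Csf1r* were also lower without overlap, those of *Fcgr1* were higher without overlap (means of 0.400 and 2.73 TPM) and those of the other 7 overlapped. Of 8 markers of T cells and natural killer cells, the usual sources of interferon-gamma, *Cd3e*, *Nkg7*, *Klrb1c*, *Prf1* and *Ncr1* were listed at 0 in all 6 wells. The summed level was 0.532 to 9.81 TPM and 3.47 to 6.93 TPM, and nearly all of it was *Cd3g*, at 9.81, 0 and 4.08 TPM in the OSKA − 4OHT wells and 5.15, 6.93 and 2.98 TPM in the OSKA + 4OHT wells, which overlapped. *Cd3d* and *Cd247* were at or below 0.532 TPM. The part of the higher pluripotent markers and of the mixed changes among the fibroblast and macrophage markers in the change of the GTPase genes was not tested.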

How the data were processed

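Libraries were stranded, polyA-selected and read as 50-base single ends. The authors trimmed the reads with Trim Galore, quantified them with Salmon against a mouse transcriptome whose release is not given in the sources used here, and deposited TPM per gene and well. Their 4 columns from a comparison of the groups (fold change, average level, test statistic and p-value) were not used.

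Symbols were matched by Ensembl identifier to GENCODE M21. Genes averaging 1 TPM or more were tested with limma-trend (limma 3.58.1, R 4.3.3) on log2(TPM + 0.5), with Benjamini-Hochberg adjustment over all 15382 genes and group as the only term, and fold changes on this scale understate the change of low genes. The study's own test was a count model, which TPM do not allow. The test was checked on simulated data. Shared 50-base windows and motifs were found with Python 3.11.15. The members and lists were chosen with earlier results of these data known.

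Genes named in the text are the 7 genes, the other family genes, the signalling chain from *Ifng* to *Irf8*, *Atg5*, the largest rise and fall with an adjusted p under 0.05 in each list, and the 5 genes most like the mean of the 7. *Usp18*, *Irf3*, *Irf7*, *Nlrc5*, *Socs1*, the other called guanylate-binding genes and the markers are named beyond that rule. 1 gene of the signalling chain is left out of the text. Protein sequences were not used here. Alternatives were other pseudocounts, filters, scalings and variance models, a replicate block and leaving out each well.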

Additional observations from a re-analysis of the deposited data

How the results depend on the processing

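All 135 fold changes computed for the 7 genes and for *Tgtp1* plus *Tgtp2*, over the 16 alternatives and the reported setting, were above 0. Of the 79 values that left out no well, 71 kept their side of the threshold. The exceptions (adjusted p from limma-trend) were *Iigp1* without a filter on low values (log2 fold change 3.09, adjusted p = 0.0541) and with quantile normalization (2.94, adjusted p = 0.0505), *Tgtp2* with a pseudocount of 0.1 (5.76, adjusted p = 0.0300), and 5 under the replicate block. The fitted value of *Tgtp2* is set by the pseudocount, at 2.72 with 1 and 1.96 with 2 (adjusted p = 0.0749 and 0.114), and that of *Iigp1* was 2.25 with 2. With the replicate number as a block, the values were 1.74 for *Irgm1* (adjusted p = 0.0574), 2.06 for *Irgm2* (0.0617), 3.09 for *Iigp1* (0.115), 3.52 for *Tgtp1* (0.0640) and 3.56 for *Tgtp1* plus *Tgtp2* (0.0640), and 1 of the 7 genes was called (*Igtp*), with 31 genes called higher and 16 lower. Wells with the same number deviated together with r of 0.024, 0.034 and 0.084, and those with different numbers with r from −0.062 to 0.033. OSKA + 4OHT replicate 1 correlated better with OSKA − 4OHT replicate 2 than with its own number, so the numbers were not taken as pairs. *Irgm1*, *Irgm2*, *Igtp* and *Ifi47* were highest in replicate 3 of both groups, whereas *Iigp1* and *Tgtp1* were highest in replicate 1 of the OSKA − 4OHT group. The reported setting called 441 genes higher and 210 lower (67.7% higher), against 363 and 302 (54.6%) with trimmed mean of M values scaling and 335 and 296 (53.1%) with quantile normalization, which moved the median of all genes from 0.14 to 0.02 and to −0.0047. A mean of at least 5 TPM left *Tgtp2* untested.

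With 1 well left out, the log2 fold changes ran from 1.51 to 1.97 for *Irgm1*, 1.76 to 2.27 for *Irgm2*, 2.45 to 3.12 for *Igtp*, 2.59 to 3.45 for *Iigp1*, 1.01 to 1.42 for *Ifi47*, 3.18 to 3.77 for *Tgtp1*, 2.82 to 4.19 for *Tgtp2* and 3.21 to 3.82 for *Tgtp1* plus *Tgtp2*. From 1 to 5 of the 7 genes were then called (5 without OSKA − 4OHT replicate 3, 2 without OSKA + 4OHT replicates 1 or 3, and 1 without each of the others), while 111 to 303 genes were called higher and 63 to 127 lower over all genes. The cause of the lost calls was not tested. TPM keeps no depth, so the precision of low values such as *Iigp1* and *Tgtp2* cannot be stated.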
